A study of Homo sapiens with 6 samples.

Results

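The genes described here are 9 cell adhesion molecules of the immunoglobulin superfamily: PECAM1, ESAM, JAM3, ICAM1, ICAM2, MCAM, ALCAM, L1CAM and NCAM1. They were chosen from the 2D and 3D expression values of these same libraries, as a named list, and all 9 had a row among the 26748 genes of the table. Their 2D and 3D values are therefore given as a description, with standard errors and intervals but no p-value. The cells were M14, an established human melanoma line, grown either attached in conventional 2D culture or unattached as 3D melanospheres, which are floating clusters of cells. Each culture had 3 poly(A) RNA-seq libraries, and the labels name no drug, knockout or time point for either. The comparison was made to look at putative cancer stem cells in the spheres. Nothing in the labels tells if a culture's replicates were grown separately, so any p-value here reflects only library-to-library spread, possibly technical.

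Adhesion molecules of this superfamily carry extracellular immunoglobulin-like domains that bind the same molecule on a neighbouring cell, a different family member, or an integrin. PECAM1, ESAM and JAM3 sit at contacts between endothelial cells, ICAM1 and ICAM2 are docking sites for leukocyte integrins, and L1CAM and NCAM1 are best known from neurons. MCAM (also called MUC18 or CD146) and ALCAM (CD166) were characterised in melanoma, where they mediate contacts among tumour cells and with vessel walls.

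Reads assigned to genes ran from 16567763 to 19954987 per library. Genes with at least 1 read numbered 20841 to 21772 in 2D and 22458 to 23572 in 3D. Of 15598 genes tested with limma on log2(value + 1), 12.5% were higher and 11.6% lower in 3D at an adjusted p under 0.05. With libraries scaled to equal totals, the counts moved from 1950 higher and 1816 lower to 2414 higher and 1253 lower, and the median log2 change of all genes moved from -0.02 to 0.11. In many of the genes below, 2D replicate 3 lay between the other 2D libraries and the 3D libraries, so results are also given without it where that matters. Since the RNA came from bulk cultures, fewer cells expressing a gene and less RNA per cell cannot be told apart.

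The melanoma label was checked against a list of melanocyte and melanoma markers, of which 12 of 13 had a row. MITF, the master regulator of the melanocyte lineage, had 1210, 1295 and 887 normalised reads in 2D replicates 1 to 3 and 309, 271 and 285 in 3D. PMEL, a melanosome structural protein, ranged from 227 to 753 in 2D and from 620 to 1377 in 3D. SOX10, MLANA, TYR and S100B, which are common markers of the lineage, were at 37.0 or lower in every library, and the highest SOX10 value was in 2D replicate 3. CSPG4, a melanoma surface proteoglycan, was at 782 to 1543 in every library, and S100A1 was higher in 3D. DCT, a pigment enzyme, had 53.4, 38.4 and 118 in 2D and 1.86, 0 and 0 in 3D. Of the epithelial list, keratin KRT8 stood at 13270 to 44355 in 2D and 21787 to 28676 in 3D, KRT5 was at 9.29 or lower, and EPCAM (means of 423 and 172) and CDH1 (92.3 and 5.62) were lower in 3D. Of the 12 melanocyte and melanoma markers with a row, 7 had a mean too low to be tested. That list summed to 2400 to 2798 in 2D and 1890 to 3295 in 3D. The epithelial list, 6 of 7 genes with a row, summed to 25644 to 65884 in 2D and 33899 to 44945 in 3D, far above it. The libraries labelled M14 thus held MITF, PMEL and CSPG4 RNA beside low levels of several defining markers and abundant RNA of the epithelial list.

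**Figure D1:**
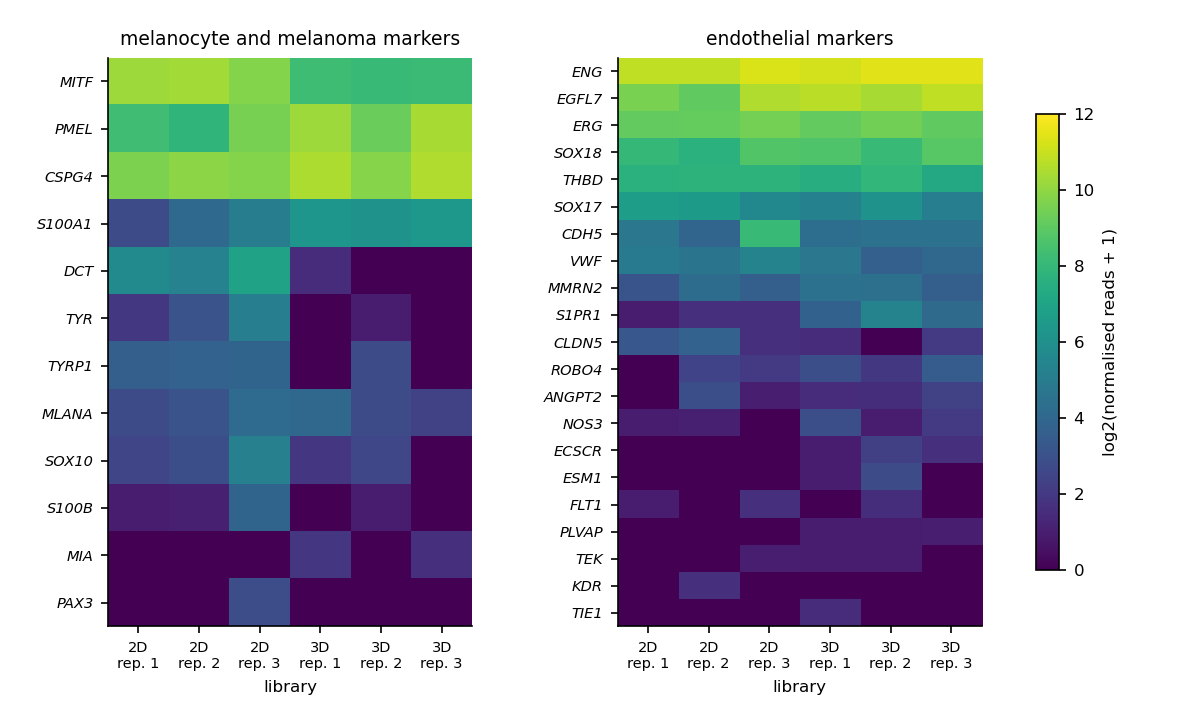
Heat map of log2(normalised reads + 1) for melanocyte and melanoma markers (left) and endothelial markers (right), with 1 column per library and 1 row per gene. MITF and PMEL are bright in all 6 libraries, while MLANA, TYR and S100B are dark, and among the endothelial markers KDR, TEK and TIE1 are near 0.

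Per kilobase of exon, which allows levels of different genes to be compared, L1CAM was the most abundant of the 9 in both cultures, at 691 ± 216 normalised reads per kb in 2D and 659 ± 78.6 in 3D (SD, n = 3 each). MCAM came next at 485 ± 109 in 2D and 287 ± 50.6 in 3D, and ICAM1 followed at 296 ± 121 and 81.9 ± 13.4. ESAM (102 ± 15.1 and 57.4 ± 11.4) and ALCAM (93.6 ± 6.30 and 55.9 ± 14.6) were neighbours whose levels lay within their spread in both cultures. ICAM2 stood at 12.3 ± 7.74 in 2D and 25.1 ± 1.29 in 3D. The lowest levels were those of JAM3 (3.25 ± 2.44 and 3.38 ± 1.60), NCAM1 (0.777 ± 0.208 and 0.0513 ± 0.0446) and PECAM1 (0.398 ± 0.688 in 2D). PECAM1 was the gene that changed place most, from the last of the 9 in 2D to the seventh in 3D, where it reached 15.0 ± 4.21 per kb.

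The makeup of the 9 genes shifted with the culture. L1CAM and MCAM together took 64.7%, 67.9% and 77.0% of their summed reads per kb in 2D replicates 1 to 3 and 80.2%, 78.2% and 81.1% in 3D. ICAM1 took 22.7%, 20.7% and 9.42% in 2D and 7.003%, 6.05% and 7.64% in 3D. Both shares separated the cultures without overlap, and 2D replicate 3 was the 2D library nearest to 3D in each. The summed level was 1711, 1653 and 1690 reads per kb in 2D and 1094, 1189 and 1273 in 3D.

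**Figure D2:**
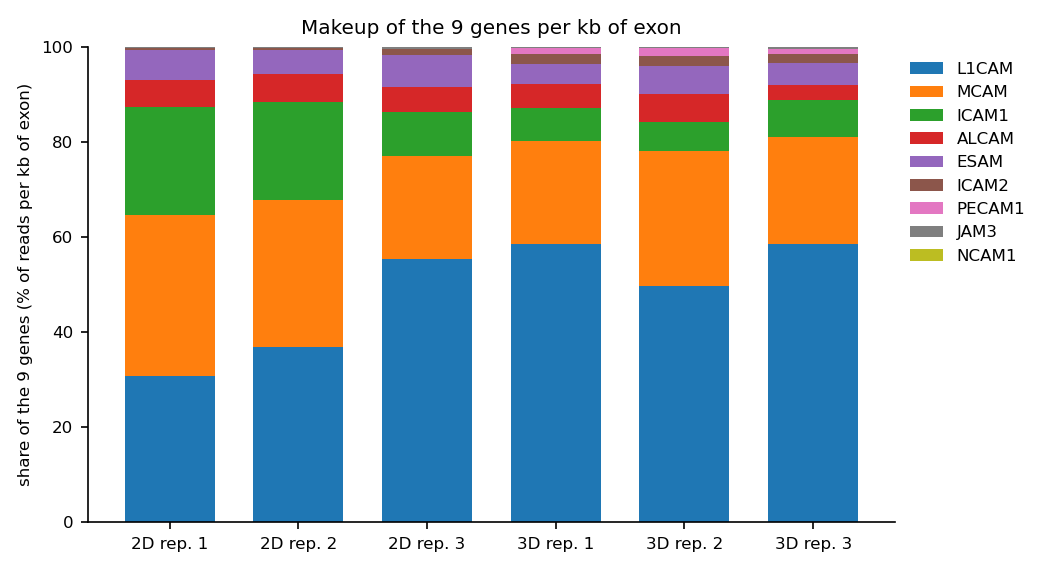
Stacked bars of each gene's share of the summed reads per kb of exon of the 9 genes (percent, y axis from 0 to 100) in each of the 6 libraries. L1CAM and MCAM fill 64.7% to 77.0% of the 2D bars and 78.2% to 81.1% of the 3D bars, while the ICAM1 share is 20.7% or more in 2D replicates 1 and 2 and 9.42% or less in the other 4 libraries.

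Among the endothelial and junctional genes, PECAM1 was the one with the widest difference between the cultures. PECAM1 (CD31, ENSG00000261371, chromosome 17, 64319415 to 64413776, minus strand, GRCh38) binds itself across endothelial junctions and is also carried by platelets and leukocytes. It had 0, 0 and 9.25 normalised reads in 2D replicates 1 to 3 and 94.6, 154 and 101 in 3D. Every 3D library lay above every 2D library, and all 2D reads came from replicate 3. The log2 change on the log2(value + 1) scale was 5.72 (SE 0.87, 95% interval 3.74 to 7.71). With 0 in 2D replicates 1 and 2, its size depends on the added 1. In whole reads, 9 in 2D stood against 359 in 3D, a ratio of 38.3 (95% binomial interval 19.97 to 84.5, counting error only) after scaling. Without 2D replicate 3 no PECAM1 read was left in 2D. Set against an assumed floor of 3 reads summed over 2D, PECAM1 was 77.2-fold higher in 3D. The exact binomial lower limit of the ratio was 62.5.

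Markers of the cell types that normally carry PECAM1 gave a mixed picture. Of 25 endothelial markers, 21 had a row and 9 of those were under 10 normalised reads in all libraries, including KDR, FLT1, TEK, TIE1 and PLVAP. Others were well above that: ENG, a co-receptor for TGF-beta, had 1838 to 2810 over the 6 libraries, and the secreted protein EGFL7 had 529 to 1868. CDH5, the VE-cadherin of endothelial junctions, had 25.7, 13.9 and 268 in 2D and 19.5, 21.3 and 21.7 in 3D, so its highest value was in 2D replicate 3 and not in a 3D library. The sum of the endothelial list ran from 3555 to 5812 in 2D and from 5362 to 5941 in 3D. S1PR1, a lipid receptor, was the 1 endothelial marker of 10 tested that rose (2.99 on the log2 scale, limma adjusted p = 0.012). That share, 10%, was near the 12.5% of all genes tested.

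The platelet list had a row for 2 of 7 genes, and its sum ran from 114 to 270 in 2D and from 250 to 606 in 3D. ITGA2B, the platelet integrin subunit, was among the genes higher in 3D (1.59, limma adjusted p = 0.047). Its values overlapped between the cultures, with 80.1, 100 and 259 in 2D and 528, 216 and 505 in 3D. The leukocyte list had 11 of 13 genes with a row and summed to 30.5 to 46.3 in 2D and 112 to 341 in 3D. LAPTM5, a lysosomal protein of blood cells, supplied most of that sum with 61.2, 267 and 88.8 in 3D, while PTPRC, the pan-leukocyte marker CD45, was at 4.27 or lower in every library. The sum of the fibroblast list, 5 of 8 genes with a row, was 2043 to 6539 in 2D and 9268 to 12212 in 3D, most of it from the collagens COL1A1 and COL3A1. The more specific fibroblast genes DCN and FAP were at or under 3.88 and 4.85 in every library, and PDGFRB overlapped between the cultures. The part of these lists in the PECAM1 values was not tested.

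ESAM (ENSG00000149564, chromosome 11, 124752583 to 124762290, minus strand) encodes an adhesion molecule of endothelial tight junctions and platelets. Its values were 310, 248 and 333 in 2D and 133, 199 and 171 in 3D, so all 3D libraries lay below all 2D libraries. The means were 297 ± 44.2 and 168 ± 33.2 (SD, n = 3 each), a log2 change of -0.83 (SE 0.24, 95% interval -1.38 to -0.28). ESAM therefore differed in direction from PECAM1. JAM3 (ENSG00000166086, chromosome 11, 134068925 to 134152001, plus strand), a junctional partner of JAM2 and of a leukocyte integrin, had 18.1, 4.27 and 30.8 in 2D and 16.7, 10.7 and 27.9 in 3D. The cultures overlapped, and the log2 change of 0.30 had a 95% interval from -1.30 to 1.90. With 1 library left out, its log2 change ran from -0.44 to 0.85. Of its exon bases, 8.53% are shared with NCAPD3 on the opposite strand, and the library kit does not mark strand. NCAPD3 was far more abundant, with 958, 1124 and 2365 in 2D and 1683, 1091 and 1577 in 3D. Its part in the JAM3 values was not tested.

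ICAM1 and ICAM2, both ligands of the leukocyte integrin LFA-1, differed in opposite directions. ICAM1 (ENSG00000090339, chromosome 19, 10270835 to 10286615, plus strand) is the inducible one, known to respond to tumour necrosis factor, interleukin-1 and interferon gamma. It had 1438, 1266 and 590 normalised reads in 2D and 284, 267 and 360 in 3D. All 3D libraries lay below all 2D libraries, and 2D replicate 3 was the 2D library nearest to 3D. The means were 1098 ± 448 and 304 ± 49.8 (SD, n = 3 each), a log2 change of -1.76 (SE 0.33, 95% interval -2.51 to -1.01). The annotation places an antisense gene, AC011511.5, over 22.0% of the ICAM1 exon bases, but it held at most 4.27 reads in any library.

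ICAM2 (ENSG00000108622, chromosome 17, 64002594 to 64020634, minus strand) is the constitutive ligand of endothelium and platelets. It had 27.6, 23.5 and 68.9 in 2D and 79.8, 86.3 and 78.5 in 3D. All 3D libraries lay above all 2D libraries, the nearest 2D value being that of replicate 3, and the means were 40.0 ± 25.1 and 81.5 ± 4.18 (SD, n = 3 each). The log2 change was 1.17 (SE 0.43, 95% interval 0.20 to 2.14). ICAM2 shares 26.8% of its exon bases with PRR29 on the opposite strand. PRR29 itself had 3.81, 3.20 and 21.6 in 2D and 59.4, 41.7 and 41.3 in 3D, and its part in the ICAM2 values was not tested. Per kb of exon, the ratio of ICAM1 to ICAM2 was 45.5, 47.2 and 7.50 in 2D and 3.11, 2.70 and 4.02 in 3D.

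For 4 of the 9 genes, RefSeq promoter sequence (GRCh38.p14) was at hand, and the 250 bases before a RefSeq start site are shown. They set the ICAM1 control region beside those of MCAM and ALCAM, which also differed between the cultures without overlap. L1CAM, which overlapped, is shown too. Capitals mark matches on either strand to the motifs searched: GGAAATTCC, the type of NF-kB site known from ICAM1; the TATA box, spelled TATAAA; the GC box, spelled GGGCGG; the core that ETS factors bind, which is CGGAAG; the site of AP-1 factors, which is TGANTCA; the melanocyte M-box, here CATGTG; and the related E-box, here CACGTG. Neighbouring GC boxes can overlap.
ICAM1 promoter, chr19:10270870-10271119, plus strand: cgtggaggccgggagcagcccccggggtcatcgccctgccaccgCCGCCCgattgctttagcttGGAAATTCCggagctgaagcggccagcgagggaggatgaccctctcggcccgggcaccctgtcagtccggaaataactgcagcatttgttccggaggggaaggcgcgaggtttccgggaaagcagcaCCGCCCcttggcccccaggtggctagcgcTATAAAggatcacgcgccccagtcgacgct
MCAM promoter, chr11:119317131-119317380, minus strand: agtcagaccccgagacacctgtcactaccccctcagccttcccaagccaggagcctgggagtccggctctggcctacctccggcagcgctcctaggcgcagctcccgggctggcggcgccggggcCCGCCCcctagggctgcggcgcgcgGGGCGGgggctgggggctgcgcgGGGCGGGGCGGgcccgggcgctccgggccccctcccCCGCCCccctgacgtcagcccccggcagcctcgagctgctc
ALCAM promoter, chr3:105366659-105366908, plus strand: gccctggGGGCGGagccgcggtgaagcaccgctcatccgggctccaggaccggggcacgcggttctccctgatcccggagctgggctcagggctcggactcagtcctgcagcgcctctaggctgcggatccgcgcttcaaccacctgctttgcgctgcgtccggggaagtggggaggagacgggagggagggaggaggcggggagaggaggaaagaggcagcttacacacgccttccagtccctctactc
L1CAM promoter, chrX:153875945-153876194, minus strand: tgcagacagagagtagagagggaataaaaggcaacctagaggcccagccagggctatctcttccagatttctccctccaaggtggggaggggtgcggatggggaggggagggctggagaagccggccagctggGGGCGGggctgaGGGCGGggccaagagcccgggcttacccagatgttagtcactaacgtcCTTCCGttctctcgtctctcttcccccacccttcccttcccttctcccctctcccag
In the ICAM1 sequence, GGAAATTCC lies 186 bases and TATAAA 30 bases before the start. GGAAATTCC was present in 0.413% of 35116 human promoters of the same length, TATAAA in 10.7%, GGGCGG in 42.6%, CGGAAG in 16.5%, TGANTCA in 6.57%, CATGTG in 9.42% and CACGTG in 6.34%. The MCAM sequence holds 5 GC boxes and is 79.6% G and C. ALCAM holds 1 GC box in this window, and the L1CAM window shown holds 2 with 1 ETS core. RefSeq lists another L1CAM start, whose window (chrX:153876015-153876264) holds the GC boxes without the ETS core. A match is a description of letters and not of a bound site.

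The melanoma-associated pair MCAM and ALCAM were both lower in 3D. MCAM (ENSG00000076706, chromosome 11, 119308529 to 119321521, minus strand) had 4298, 3792 and 2711 in 2D and 1756, 2508 and 2131 in 3D. The groups did not overlap, although 2D replicate 3 (2711) and 3D replicate 2 (2508) were close. The means were 3600 ± 811 and 2132 ± 376 (SD, n = 3 each), a log2 change of -0.74 (SE 0.22, 95% interval -1.25 to -0.24). CBL, on the opposite strand, overlaps 6.86% of the MCAM exon bases. It had 1072, 1794.5 and 1278 in 2D and 1121, 1042 and 930 in 3D, and its part in the MCAM values was not tested. ALCAM (ENSG00000170017, chromosome 3, 105366909 to 105576900, plus strand), the ligand of CD6 on T cells that also binds itself, had 706, 690 and 621 in 2D and 391, 511 and 301 in 3D. Again all 3D libraries lay below all 2D libraries, and the means of 672 ± 45.2 and 401 ± 105 (SD, n = 3 each) gave a log2 change of -0.78 (SE 0.22, 95% interval -1.28 to -0.27). The ratio of ESAM to MCAM per kb was 0.183, 0.166 and 0.312 in 2D and 0.192, 0.201 and 0.204 in 3D, so the 2 genes kept similar proportions in every library but 2D replicate 3.

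Of the neural pair, the abundant L1CAM overlapped between the cultures, and the scarce NCAM1 had nearly all its reads in 2D. L1CAM (ENSG00000198910, chromosome X, 153861514 to 153886174, minus strand), which binds itself and integrins, had 3833, 4442 and 6803 in 2D and 4660, 4297 and 5417 in 3D. The cultures overlapped, 2D replicate 3 held the highest value, and the log2 change of -0.03 had a 95% interval from -0.57 to 0.50. Of its exon bases, 6.04% are shared with U52112.1 and 4.94% with LCA10, and 4.79% of its 75-base windows also occur in another gene, so a small part of its reads is uncertain. NCAM1 (ENSG00000149294, chromosome 11, 112961247 to 113278436, plus strand), the CD56 antigen of neurons and natural killer cells, had 7.62, 12.8 and 9.25 in 2D and 0.928, 0 and 1.03 in 3D. All 3D libraries lay below all 2D libraries. With 29 reads in 2D and 2 in 3D, its 2D to 3D ratio was 15.1 (95% binomial interval 3.82 to 130, counting error only). Its mean over the 6 libraries, 5.27, was under the minimum of 10 for the genome-wide fit. The ratio of MCAM to L1CAM per kb was 1.10, 0.836 and 0.390 in 2D and 0.369, 0.572 and 0.385 in 3D, and here 2D replicate 3 lay among the 3D libraries.

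**Figure D3:**
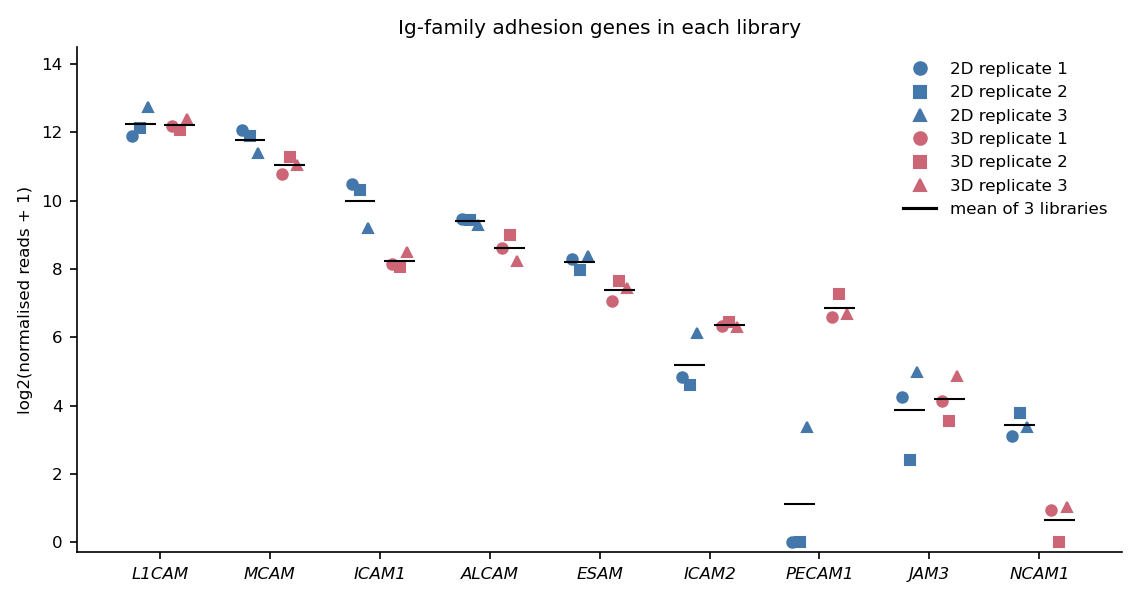
Log2(normalised reads + 1) of the 9 genes in each library, with blue points for 2D, red points for 3D and black bars for the mean of 3 libraries. PECAM1 is at 0 in 2D replicates 1 and 2 and at 94.6 to 154 reads in 3D, ICAM1, ESAM, MCAM, ALCAM and NCAM1 lie lower in 3D, and L1CAM and JAM3 overlap.

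In the fit across all genes, 8 of the 9 had a mean high enough to enter, and 1 was past the threshold higher (PECAM1) and 4 lower (ICAM1, ESAM, MCAM, ALCAM). Of all genes tested, 24.1% were past it in either direction. The 3 libraries of each culture did not overlap for 6 of the 8, beside 43.1% of all genes tested. Since earlier values of these libraries chose the 9 genes, nothing is read from these counts, nor from the calls in the fits below. With 1 library left out, the log2 change of PECAM1 ran from 5.17 to 6.84, that of ICAM1 from -2.16 to -1.52, that of ESAM from -0.96 to -0.67, that of MCAM from -0.94 to -0.60 and that of ALCAM from -0.97 to -0.59. The genes past the threshold were PECAM1 and ICAM1 alone in the fits that dropped 2D replicate 1 or 2 and in those that dropped 3D replicate 1 or 3. ICAM2 joined all 5 in the fit without 2D replicate 3, where its log2 change was 1.64.

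The wider family was then read from a list of 85 other immunoglobulin-superfamily adhesion genes, of which 58 had a row and 37 were tested. Of these, 8 rose and 7 fell in 3D, which is 21.6% and 18.9%, beside 12.5% and 11.6% of all genes tested. The difference in shares was not tested. The median log2 change was 0.04 beside -0.02 for all genes tested. Among genes whose mean reached 50 where they were higher, the largest rises were in AMIGO2, CEACAM1, IGSF8, IGSF3, BOC and CD58, and the largest falls were in NFASC, NEGR1, PVR, SIRPA, CD47 and NEO1. MADCAM1, an addressin of gut venules with a lower level (means of 3.34 and 29.4, log2 change 2.83), and PRTG rose as well, and KIRREL1 fell. Leaving out 1 library moved these counts to between 3 and 13 higher and between 1 and 9 lower. Without 2D replicate 3 there were 13 higher and 9 lower. The fits that dropped 2D replicate 1, 2D replicate 2 and 3D replicate 1 each gave 4 and 1, and the fit that dropped 3D replicate 3 gave 3 and 2.

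AMIGO2, a leucine-rich-repeat and immunoglobulin adhesion protein of neurons, had 44.8, 45.9 and 14.4 in 2D and 154, 907 and 176 in 3D (log2 change 3.18, limma adjusted p = 0.016). Its spread within 3D was wide, with replicate 2 far above the other 3D libraries. IGSF3 had 234, 241 and 606 in 2D and 1016, 1906 and 1055 in 3D (1.96, limma adjusted p = 0.011), and its relative IGSF8, a partner of tetraspanins, had 219, 154 and 687 against 1174, 981 and 1334 (2.01, limma adjusted p = 0.020). Both belong to the EWI group, whose other tested gene, PTGFRN, did not pass (-0.11, limma adjusted p = 0.72). CEACAM1 had 13.3, 8.54 and 31.9 in 2D and 55.7, 180 and 71.2 in 3D (2.46, limma adjusted p = 0.020).

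On the other side, NFASC, an L1-family protein of axon initial segments and nodes, had 48.6, 92.9 and 78.1 in 2D and 0.928, 0 and 5.16 in 3D (-4.97, limma adjusted p = 0.0028). It was the L1-family gene with a fall, while its relative NRCAM had 335, 319 and 101 in 2D against 261, 276 and 197 in 3D (0.13, limma adjusted p = 0.85). NEGR1, a GPI-anchored IgLON protein, had 633, 641 and 199 in 2D and 104, 157 and 69.2 in 3D (-2.04, limma adjusted p = 0.020). The poliovirus receptor PVR, a nectin-like ligand of natural killer cell receptors, had 5467, 5053 and 2093 in 2D and 1401, 1732 and 1553 in 3D (-1.31, limma adjusted p = 0.027). In all 3 genes every 3D library lay below every 2D library. CD47, the "do not eat me" signal, and its receptor SIRPA both fell, by 0.71 and by 1.08 on the log2 scale (limma adjusted p = 0.015 and 0.014). AMIGO2, IGSF3 and NFASC stayed past the threshold in all 6 fits that left out 1 library, whereas SIRPA and BOC did so in 3 of the 6, IGSF8, CEACAM1, NEGR1, CD47 and NEO1 in 2, and PVR and CD58 in 1.

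By mean level per kb over the 6 libraries, the family was led by BSG (basigin), BCAM (a laminin receptor) and PVR, although NPTN (480) and IGSF8 (449) lay above PVR (444) in 3D. BSG held 2732 reads per kb in 2D and 2940 in 3D and did not pass the test (0.12 on the log2 scale, limma adjusted p = 0.68). BCAM had a log2 change of -0.77 (limma adjusted p = 0.083). L1CAM at 691 per kb in 2D lay below PVR (1195) and BCAM (1091), whereas in 3D, at 659, it lay above PVR (444) and near BCAM (667).

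**Figure D4:**
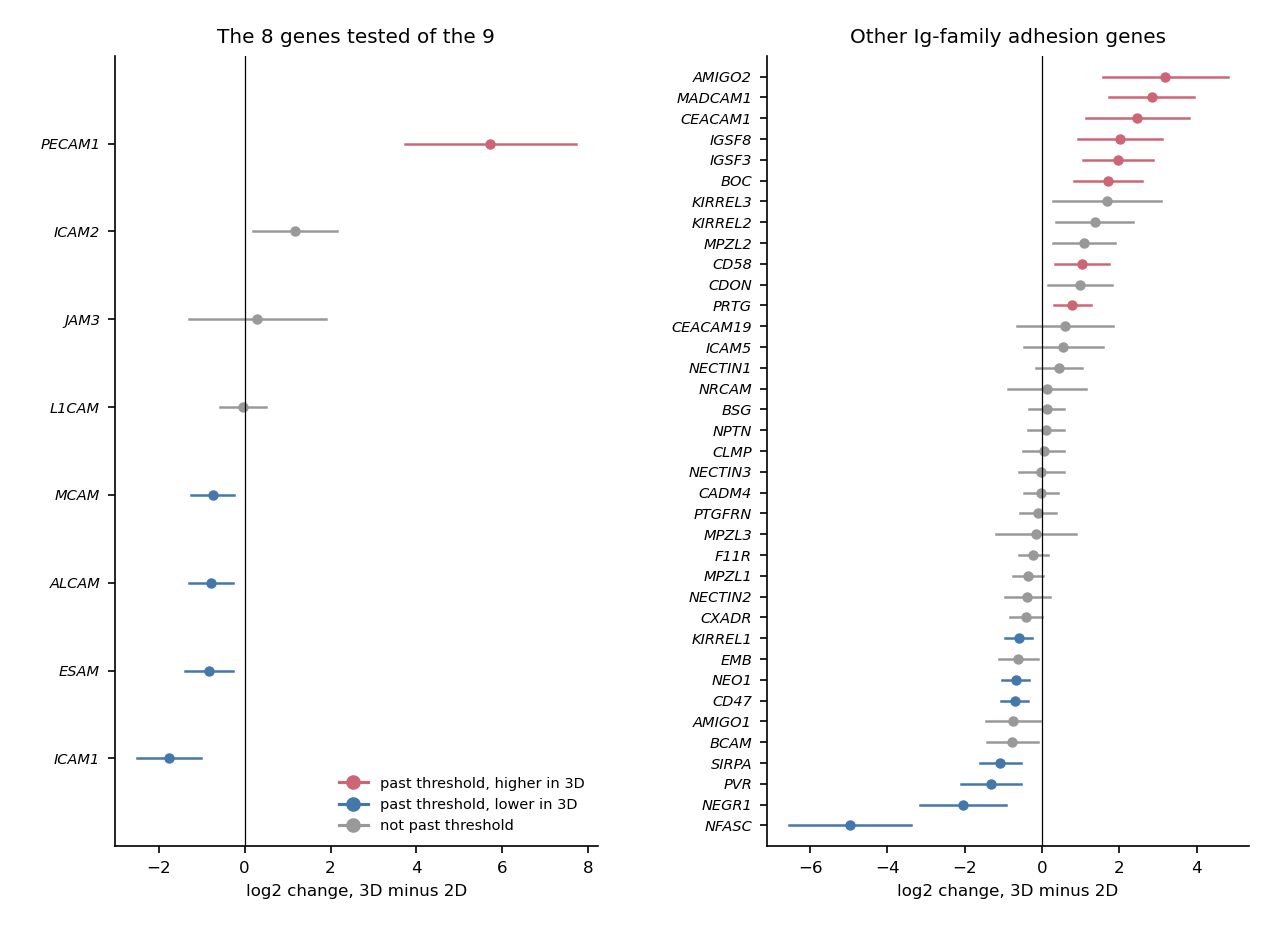
Log2 change (3D minus 2D) with 95% intervals for the 8 genes tested of the 9 (left) and for the 37 other immunoglobulin-family adhesion genes tested (right). Red is past the threshold higher, blue past it lower and grey not past it. PECAM1 stands at 5.72 and ICAM1 at -1.76, and on the right AMIGO2 (3.18) and NFASC (-4.97) mark the upper and lower ends.

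A list of 46 binding partners and processing enzymes of the 9 genes had 40 genes with a row, of which 31 were tested. Of these, 6 rose and 6 fell (median -0.12), which is 19.4% each, beside 12.5% and 11.6% of all genes tested. The difference in shares was not tested. The genes higher in 3D were the laminin chain LAMA4, the integrin subunits ITGAX and ITGA5, the galectins LGALS1 and LGALS3, and ANK1, a spectrin linker. The laminin alpha-4 chain LAMA4, a ligand of MCAM, had 7.62, 24.6 and 20.6 in 2D and 110, 309 and 105 in 3D (3.20, limma adjusted p = 0.0066). ITGAX, the CD11c integrin subunit that binds ICAM1, had 36.2, 41.6 and 25.7 against 293, 221 and 306 (2.96, limma adjusted p = 0.0007). Its partner subunit ITGB2 did not pass (0.39, limma adjusted p = 0.31). ITGAL, the LFA-1 subunit that pairs with ITGB2, was at 5.34 or lower in every library. LGALS1 rose 2.33 on the log2 scale (limma adjusted p = 0.018), with 1693, 1306 and 6916 in 2D and 10804, 15280 and 11691 in 3D. Its call held in 1 of the 6 fits that left out 1 library, while those of LAMA4, ITGAX and ANK1 held in all 6.

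Lower in 3D were the junctional scaffolds TJP1 and PARD3, the membrane linker EZR, the co-receptor NRP1, FGFR2 and PTPN11. TJP1 (ZO-1), which binds junctional adhesion molecules from inside the cell, had 226, 408 and 123 in 2D and 59.4, 37.8 and 87.7 in 3D (-1.93, limma adjusted p = 0.022). That call held in 2 of the 6 fits that left out 1 library, that of PARD3 in 1, that of EZR in 4 and that of NRP1 in all 6. EZR, which ties ICAM1 and ICAM2 to actin, had 5678, 5180 and 7128 against 3369, 3308 and 3356 (-0.83, limma adjusted p = 0.013). The sheddase ADAM10, which cuts ALCAM and L1CAM, missed the threshold at -0.44 (limma adjusted p = 0.059). ST8SIA4, which adds polysialic acid to NCAM1, held at most 2.14 reads in any library, and JAM2, the partner of JAM3, at most 5.16. CD6 and CD38 had no row, so no value can be given for them. Leaving out 1 library gave 3 to 9 partners higher and 2 to 9 lower. Without 2D replicate 3 there were 9 and 9, without 2D replicate 1 there were 4 and 2, without 2D replicate 2 there were 4 and 3, without 3D replicate 1 there were 3 and 2, without 3D replicate 2 there were 4 and 4, and without 3D replicate 3 there were 3 and 3.

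For ICAM1, a list of 39 genes that induce it or share its NF-kB and interferon control had 36 genes with a row and 33 tested. Of these, 5 rose and 3 fell (median -0.03). These shares, 15.2% and 9.09%, were near the 12.5% and 11.6% of all genes tested. The genes that rose were GBP2, IL1R1, TNFRSF1B, LIF and TRAF1, and those that fell were IL6, CD83 and NFKB1. GBP2, an interferon-induced GTPase, had 18.1, 6.41 and 9.25 in 2D and 213, 135 and 197 in 3D (3.99, limma adjusted p = 0.0009), with 8.94% of its 75-base windows also found in another gene. The interleukin-1 receptor IL1R1 had 21.9, 19.2 and 30.8 against 298, 139 and 318 (3.27, limma adjusted p = 0.0014). LIF, a cytokine of the interleukin-6 family, rose by 1.38 on the log2 scale (limma adjusted p = 0.0029), TRAF1, an adaptor of tumour necrosis factor receptors, by 1.22 (0.0077), and TNFRSF1B, one of those receptors, by 2.33 (0.045). The TNFRSF1B call held in 2 of the 6 fits that left out 1 library, and those of GBP2, IL1R1 and LIF in all 6.

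IL6 had 51.5, 76.9 and 40.1 in 2D and 6.49, 16.5 and 4.13 in 3D (-2.65, limma adjusted p = 0.011). CD83, a surface protein induced by NF-kB, had 523, 541 and 949 in 2D and 192, 218 and 184 in 3D (-1.70, limma adjusted p = 0.0041). NFKB1, which encodes the p50 precursor, fell by 0.68 on the log2 scale (limma adjusted p = 0.022). In fits that left out 1 library, CD83 kept its call in 6 of 6, IL6 in 4 and NFKB1 in 2. Of the 33 genes of this list that were tested, 25 did not pass. Among them were NFKBIA at 0.22 (limma adjusted p = 0.37), TNFAIP3 at 0.02 (0.97) and IRF1 at -0.40 (0.24). RELB, with 352, 306 and 125 in 2D and 103, 104 and 131 in 3D, overlapped and had a change of -1.08 (limma adjusted p = 0.072). Without 2D replicate 3 the list had 5 higher and 7 lower, and without 3D replicate 3 it had 3 higher and 1 lower. The fits that dropped 2D replicate 1, 2D replicate 2 and 3D replicate 1 each gave 4 and 2.

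For each of the 8 genes tested, the genes with the most similar profile were found by the root mean square difference of mean-centred log2 values over the 6 libraries. ESAM lay nearest to SLC37A1 (0.061) and DNAJC30 (0.0886), MCAM to SRSF8 (0.0415) and SRP68 (0.0498), and ALCAM to TMTC3 (0.0587) and PPP2R5E (0.0620). L1CAM lay nearest to NUP188 (0.0403) and SMARCA4 (0.0578), ICAM1 to AVPI1 (0.102) and OTUD1 (0.110), and ICAM2 to IL17RD (0.0637) and MPZL2 (0.0731). PECAM1 and JAM3 had no close match among the genes searched. The nearest were AKR1C3 (0.636) and FAM9B (0.696) for PECAM1 and KHK (0.389) and CCNE2 (0.457) for JAM3. Only protein-coding genes with a mean of at least 100 were searched, above the means of PECAM1 (59.9), ICAM2 (60.8) and JAM3 (18.1). Genes of their own low level were therefore left out. These names describe likeness over 6 libraries and carry no test.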

How the data were processed

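RNA of 3 2D and 3 3D libraries was measured by poly(A) RNA-seq, with groups and replicate numbers taken from the sample titles. The submitters' processing notes name GRCh38, the aligner HISAT2, the counter featureCounts 1.5.0, and DESeq2. For HISAT2 and DESeq2 no version is given in the sources used here, nor is an annotation release. Per the labels' protocols, the library kit was TruSeq RNA v2, which does not mark strand.

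Each deposited value is a signal for 1 gene in 1 library, which the authors obtained from gene-level read counts with a library-wide size factor. Whole reads were recovered from them for 100% of values within 0.01 of a read. The table held 26748 genes, 26506 of them named in a symbol table and 26702 in GENCODE 29, which gave coordinates and exon lengths. Its 6 empty columns were not used.

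Genes with a mean of at least 10 entered limma 3.58.1 (R 4.3.3), run with eBayes and a trend on log2(value + 1), and Benjamini-Hochberg adjustment over all genes at 0.05 followed. The settings varied were the pseudocount (0.1 and 10), the filter (none, or a mean of 50 or more), the scaling (TMM, equal totals), the replicate number as a block, edgeR 4.0.16 and DESeq2 1.42.0 on the recovered reads, and leaving out each library. The edgeR test called 1944 genes higher and 1713 lower. The workflow was tested on simulated data. Intervals on read ratios are exact 95% binomial intervals and cover counting error only. The labels do not say that a replicate number marks a shared culture, day or batch, so the numbers were not used as pairs. Deviations of same-numbered libraries from their culture means had r of -0.084, -0.139 and 0.045. With 3 libraries per culture, these values cannot settle whether the libraries were paired.

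The 9 genes and the lists were chosen with earlier results of these data known. Of the 3 wider lists, the text names the genes with the largest changes past the threshold whose mean in the higher culture reached 50 (6 per direction in the family, 4 in the others), the 3 family genes with the highest level per kb and 7 direct partners. It also names the nearest 2 profiles among protein-coding genes with a mean of at least 100 and the highest markers. Other names were chosen after their values were seen. Promoters are from RefSeq (GRCh38.p14), which matched 4 of the 9 genes. Shared sequence was measured in 75-base windows of GENCODE 29 transcripts.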

Additional observations from a re-analysis of the deposited data

How the results depend on the processing

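Over the 9 alternatives that kept all 6 libraries, ESAM, ICAM1, ICAM2, MCAM, ALCAM and PECAM1 kept their direction, PECAM1 with log2 changes from 3.32 to 7.97 by pseudocount. Equal totals left ICAM1 and PECAM1 past the threshold, edgeR left ICAM1, PECAM1 and ESAM, and TMM lost MCAM. With no filter NCAM1 was past it too. Since the 9 genes were chosen from these same libraries, nothing is read from which of them passed in any setting. L1CAM ran from -0.04 to 0.10. The replicate block gave 1748 genes higher and 1474 lower and kept PECAM1, ICAM1 and ALCAM. The labels do not say whether the numbers pair the libraries. Leaving out 1 library gave 520 to 3573 genes higher and 657 to 3579 lower. It gave 3 to 13 family genes higher and 1 to 9 lower, 3 to 9 partners higher and 2 to 9 lower, and 3 to 5 genes of the ICAM1 list higher and 1 to 7 lower. The most calls came without 2D replicate 3 and the fewest without 3D replicate 3 for all genes, and the cause was not tested. BSG ran from -0.024, without 2D replicate 2, to 0.232, without 2D replicate 3. Depth limits JAM3, NCAM1 and PECAM1 in 2D, which had 53, 29 and 9 reads there. With 3 libraries per culture, the spread rests on few values.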

Other observations

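PECAM1 and ICAM2, the 2 genes of the 9 with all 3D libraries above all 2D libraries, lie 411 kb from end to end on chromosome 17 (64002594 to 64413776, GRCh38). This stretch was looked at after the values were seen. Of the genes within it other than these 2, 6 had a row and 5 were tested, and PRR29, which overlaps ICAM2 on the opposite strand, was higher in 3D (log2 change 2.63, limma adjusted p = 0.024). SNHG25 had a change of 1.72 (limma adjusted p = 0.060) and SNORD104 one of 1.03 (0.10). ERN1, the stress sensor IRE1, had -0.98 (0.27) and TEX2 -0.19 (0.44). The tested genes of the stretch thus had changes of both signs. Of these 5, 1 was past the threshold, beside 24.1% of all genes tested.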
